A study of Mus musculus with 6 samples.

Results

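Messenger RNA of the arginine methyltransferases was followed in mouse eggs arrested at metaphase II (MII), as they are ovulated and before fertilization. The set was fixed by gene symbol and held 9 of the 24062 genes in the table: Carm1, Prmt1, Prmt2, Prmt3, Prmt5, Prmt6 and Prmt7, which encode arginine methyltransferases, Jmjd6, and Coprs, a partner of Prmt5. All eggs came from superovulated 8-week-old females of the line HISRainbow;Figla-iCre, in which a multicolour histone transgene is recombined by iCre under the oocyte gene Figla, so every group carried the transgene and the recombinase. The R26K eggs expressed H3.3R26K-eCFP, where arginine 26 of the replacement histone H3.3 is replaced by lysine. The K27R eggs expressed H3.3K27R-mCherry, where lysine 27 is replaced by arginine, and the H3.3 eggs expressed the unmutated H3.3-eGFP. Each form had its own fluorescent tag, by which eggs were picked under a confocal microscope, so substitution and tag cannot be told apart. Each group had 2 libraries, called biological replicates in the labels; whether they came from separate females was not stated, so a p-value here speaks of the spread among libraries, which may be technical.

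Arginine methyltransferases move methyl groups from S-adenosylmethionine to arginine side chains of histones, RNA-binding proteins and ribosomal proteins. Most of them, Carm1 and Prmt1 among them, leave both methyl groups on 1 nitrogen (asymmetric), whereas Prmt5 places them on separate nitrogens (symmetric) and Prmt7 adds a single methyl group. Carm1 methylates arginine 26 of histone H3, the residue that R26K lacks, and in the early mouse embryo its activity has been linked to the allocation of cells to the inner cell mass. Eggs at this stage are transcriptionally silent and rely on mRNA stored during growth.

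The R26K libraries held more reads and more genes than the others. Gene counts summed to 39603440 and 33786225 for R26K, to 11557291 and 10803477 for K27R, and to 12748821 and 11452906 for H3.3, and 7392 to 12135 genes had a count. Levels are given in CPM, that is, read counts divided by a library size adjusted with TMM factors (a trimmed mean of log ratios between libraries), and 3 counts correspond to 0.0815 to 0.285 CPM. Of 15 oocyte markers, 14 or 15 had counts in every library, with summed levels of 57434 to 76852 CPM. Figla was the absent marker in K27R replicate 2 and H3.3 replicate 1. Single markers could differ more than their sum, in either direction, as in 2 named after their values were seen. Zar1 was at 4316 and 4089 CPM in R26K and at 177 to 270 CPM in the other libraries. Dppa3 was at 4424.5 and 3280 CPM in R26K and at 8105 to 12376 CPM in the others. Of 20 cumulus and granulosa markers, genes of the cells around the egg, the R26K libraries had counts for 16 and 11, the K27R libraries for 12 and 4 and the H3.3 libraries for 3 and 11. Their summed level was 2091 and 2033 CPM in the R26K libraries, 1948 and 1410.2 CPM in the K27R libraries, and 965 and 1822 CPM in the H3.3 libraries. In bulk libraries, fewer cells of a type and less RNA per cell cannot be told apart.

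Carm1 was counted in 3 of the 6 libraries. It lies on chromosome 9 from 21546894 to 21592623 of mm10, on the plus strand. It was at 19.2 and 7.80 CPM in R26K, at 0 and 23.2 CPM in K27R, and at 0 in both H3.3 libraries. Both R26K libraries and K27R replicate 2 thus held Carm1 at 7.80 to 23.2 CPM, while K27R replicate 1 and the H3.3 libraries held none. The R26K mean was at least 55.6-fold above the floor of 3 counts per H3.3 library (0.242 CPM), and the difference did not pass (edgeR adjusted p = 0.247). The K27R mean was at least 47.8-fold above the same floor, but rested on 244 counts in replicate 2 alone (edgeR adjusted p = 0.522). Between the mutants the R26K mean was 13.5 ± 8.04 CPM and the K27R mean 11.6 ± 16.4 CPM (SD, n = 2 each), so the spread within each group exceeded the difference. DESeq2 called Carm1 against H3.3 in R26K (adjusted p = 6.2e-08) and in K27R (adjusted p = 1.6e-07), where over all alternatives the adjusted p ran from 6.2e-08 to 0.872 and from 1.6e-07 to 1. Exons of Carm1 share 1025 bases with Yipf2 on the opposite strand. The libraries do not mark the strand, so the strand of a read could not tell the 2 genes apart within those bases. How such reads were counted is not given in the sources used here. Yipf2, a Golgi membrane protein gene, was at 1.14 and 1.36 CPM in R26K, 3.18 and 0 CPM in K27R, and 0 in both H3.3 libraries.

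A missing count was common at this level. Of the 1440 tested genes that averaged 10 to 20 CPM in R26K, the range that holds Carm1, 7.29% had no count in K27R replicate 1, 33.5% in K27R replicate 2, 34.0% in H3.3 replicate 1 and 38.1% in H3.3 replicate 2. Both H3.3 libraries lacked 264 of the 1440 (18.3%). Without a count in both H3.3 libraries and in K27R replicate 1, as for Carm1, there were 61 (4.24%). The shares were smaller at higher levels, as the plot of genes without a count shows, and K27R replicate 2 lay with the H3.3 libraries rather than with K27R replicate 1. The zeros of Carm1 in H3.3 therefore do not bound its level in those eggs, and floors and intervals here take in counting error alone, because amplified reads are not separate molecules.

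**Figure D1:**
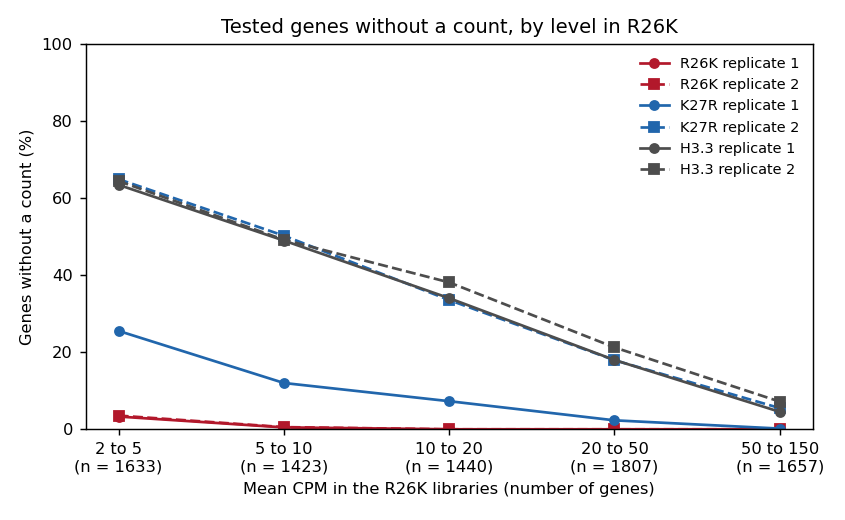
Share of tested genes without a count (percent) in each library, by mean CPM of the gene in the R26K libraries; the number of genes stands under each range. At 10 to 20 CPM, K27R replicate 2 and both H3.3 libraries lacked 33.5% to 38.1% of genes and K27R replicate 1 lacked 7.29%; the R26K values are near 0 because the ranges were set on those libraries.

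Prmt1, which provides most of the asymmetric arginine methylation in mammalian cells and methylates histone H4, was counted in every library. It was at 66.9 and 58.8 CPM in R26K, at 12.8 and 10.9 CPM in K27R and at 18.7 and 11.05 CPM in H3.3. The R26K libraries lay above all others, and the K27R and H3.3 ranges overlapped. The log2 fold change was 2.08 ± 1.01 (SE) in R26K against H3.3 and 2.41 ± 1.02 in R26K against K27R, with edgeR adjusted p of 0.268 and 0.397. In K27R against H3.3 it was -0.33 ± 0.97 (edgeR adjusted p = 0.992). Prmt1 lies on chromosome 7 from 44975989 to 44986568.

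Jmjd6, a dioxygenase that hydroxylates lysines of splicing factors and for which arginine demethylation has been reported and disputed, had a pattern close to that of Prmt1. It was at 114.9 and 85.0 CPM in R26K, at 11.2 and 8.64 CPM in K27R and at 18.9 and 15.5 CPM in H3.3. No groups overlapped: R26K was the highest and K27R the lowest. The log2 fold change was 2.54 ± 0.81 in R26K against H3.3 (edgeR adjusted p = 0.213), 3.33 ± 0.83 in R26K against K27R (adjusted p = 0.224) and -0.79 ± 0.77 in K27R against H3.3 (adjusted p = 0.800), none of which passed. DESeq2 called it in R26K against H3.3 (adjusted p = 0.0050, with 0.0050 to 0.872 over all alternatives) and in R26K against K27R (adjusted p = 0.00011, with 0.00011 to 1). Jmjd6 lies on chromosome 11 from 116837432 to 116843449 and shares 172 exon bases with the oppositely oriented Mettl23, which stayed at or below 5.60 CPM in every library.

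Coprs, which binds Prmt5 and directs it to histones, was at 115.3 and 131.5 CPM in R26K, at 37.8 and 76.4 CPM in K27R and at 19.997 and 22.4 CPM in H3.3. The 3 groups did not overlap, with R26K the highest and H3.3 the lowest. The log2 fold change was 2.54 ± 0.66 in R26K against H3.3 (edgeR adjusted p = 0.165), the smallest p of the 9 genes in that comparison. It was 1.11 ± 0.63 in R26K against K27R and 1.43 ± 0.63 in K27R against H3.3 (edgeR adjusted p = 0.573 and 0.522). DESeq2 called the first of these (adjusted p = 0.0033, with 0.0033 to 0.872 over all alternatives). The gene lies on chromosome 8 from 13884794 to 13890281, and no exon of another gene overlapped it in GENCODE M21.

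Prmt5 itself, the main symmetric arginine methyltransferase and the enzyme Coprs binds, showed no such order. It was at 23.3 and 13.1 CPM in R26K, at 45.4 and 0 CPM in K27R and at 0 and 64.5 CPM in H3.3. Replicates of K27R and of H3.3 thus differed more from each other than the groups did, with means of 18.2 ± 7.21 CPM in R26K, 22.7 ± 32.1 CPM in K27R and 32.2 ± 45.6 CPM in H3.3 (SD, n = 2 each). The edgeR adjusted p was 0.934 for R26K against H3.3 and 1 for R26K against K27R and for K27R against H3.3. The direction rested on single libraries: the log2 fold change of R26K against H3.3 was -0.82 with all libraries and 11.59 without H3.3 replicate 2, and that of K27R against H3.3 was -0.51 with all libraries, 11.90 without H3.3 replicate 2 and 0.50 without K27R replicate 2.

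Of the 20 cumulus and granulosa markers, 6 had the presence and absence of Prmt5, with no count in K27R replicate 2 and H3.3 replicate 1 and counts in the other 4 libraries; 12 had other patterns and 2 had no count anywhere. The 6 were Tnfaip6, Ptx3, Inha, Star, Akr1c18 and Hsd3b1. Star was at only 0.0850 CPM in H3.3 replicate 2, below the floor of 3 counts there (0.255 CPM). Tnfaip6, whose protein organizes the expanding cumulus matrix, was at 29.4 and 11.04 CPM in R26K, at 86.9 and 0 CPM in K27R and at 0 and 186 CPM in H3.3. Inha, the inhibin alpha subunit of granulosa cells, was at 25.3 and 53.5 CPM in R26K, at 83.0 and 0 CPM in K27R and at 0 and 97.5 CPM in H3.3. Akr1c18, a steroid dehydrogenase, was at 52.7 and 14.8 CPM in R26K, at 23.7 and 0 CPM in K27R and at 0 and 67.0 CPM in H3.3. Serpine2, the marker of that list with the highest CPM, had counts in all libraries, at 1914 and 1814 CPM in R26K, at 1655 and 1394 CPM in K27R and at 941 and 1241 CPM in H3.3. Others of the list departed from Prmt5 in some libraries. For Ptgs2, H3.3 replicate 1 held 23.8 CPM, whereas R26K replicate 2 and K27R replicate 1 held none. In H3.3 replicate 2, with Prmt5 at 64.5 CPM, no reads of Cyp11a1 were counted. Cyp19a1 differed in K27R replicate 2, with 15.6 CPM where Prmt5 was at 0, but otherwise shared features with Prmt5. Its level was 0 in H3.3 replicate 1, highest in H3.3 replicate 2 (144 CPM), and lower in K27R replicate 2 than in K27R replicate 1. These markers were named after their values were seen, and the part of such cells in the Prmt5 values was not tested. The same presence and absence, no count in K27R replicate 2 and H3.3 replicate 1 with counts in the other 4 libraries, was found for 503 of the 10667 tested genes (4.72%). Prmt5 lies on chromosome 14 from 54507187 to 54517525.

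Prmt3, a cytoplasmic enzyme that methylates a protein of the small ribosomal subunit, was almost absent outside R26K. It was at 33.02 and 39.4 CPM in R26K, 1.95 and 0.0950 CPM in K27R, and had no count in H3.3. In counts these were 1216 and 1304 for R26K, 24 and 1 for K27R, and 0 for both H3.3 libraries. The R26K mean was at least 149-fold above the floor of 3 counts per H3.3 library (edgeR adjusted p = 0.204), and the log2 fold change against K27R was 5.13 ± 2.40 (edgeR adjusted p = 0.481). DESeq2 called the difference from H3.3 (adjusted p = 0.00014, with 0.00014 to 0.872 over all alternatives). Of the 1807 tested genes that averaged 20 to 50 CPM in R26K, 149 (8.25%) also lacked a count in both H3.3 libraries. Prmt3 lies on chromosome 7 from 49778346 to 49858265.

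Prmt6 and Prmt7 were scarce. Prmt6, which methylates histone H3, was at 3.53 and 1.88 CPM in R26K, at 0 in both K27R libraries, and at 0.0766 and 0 CPM in H3.3. Its 192 counts in R26K against 1 in H3.3 gave a ratio of 68.2 after scaling to library size, with a 95% counting interval from 12.1 to 2707 (exact binomial), and its mean in R26K was at least 10.2-fold above the floor of 3 counts per K27R library (0.265 CPM). Prmt7, the enzyme of single methylation, was at 2.31 and 3.21 CPM in R26K, 0.163 and 0 CPM in K27R, and 0 in H3.3. Its R26K mean was at least 11.4-fold above the H3.3 floor, and the ratio to the 2 counts in K27R was 31.2 (95% interval 8.51 to 259). Neither gene passed, with edgeR adjusted p of 0.236 (Prmt6) and 0.213 (Prmt7) in R26K against H3.3. At this level many genes were missed: 45.01% of the 1633 genes that averaged 2 to 5 CPM in R26K were at 0 in both H3.3 libraries. Exons of Prmt6 share 984 bases with the antisense C130013H08Rik and exons of Prmt7 share 247 with Smpd3 on the opposite strand, which had at most 0.814 CPM in any library. Prmt6 lies on chromosome 3 from 110246109 to 110250998 and Prmt7 on chromosome 8 from 106210936 to 106252794.

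Prmt2, a coactivator of nuclear receptors with weak methyltransferase activity, had the highest mean level of the set per kilobase of exon. It was at 218 and 165 CPM in R26K, at 207 and 57.0 CPM in K27R and at 91.9 and 139 CPM in H3.3. R26K lay above H3.3 and overlapped K27R, whose replicates spanned the H3.3 values. The log2 fold change was 0.73 ± 0.65 in R26K against H3.3, 0.53 ± 0.65 in R26K against K27R and 0.20 ± 0.65 in K27R against H3.3, with edgeR adjusted p of 0.578, 0.954 and 1. Prmt2 lies on chromosome 10 from 76207222 to 76237865.

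**Figure D2:**
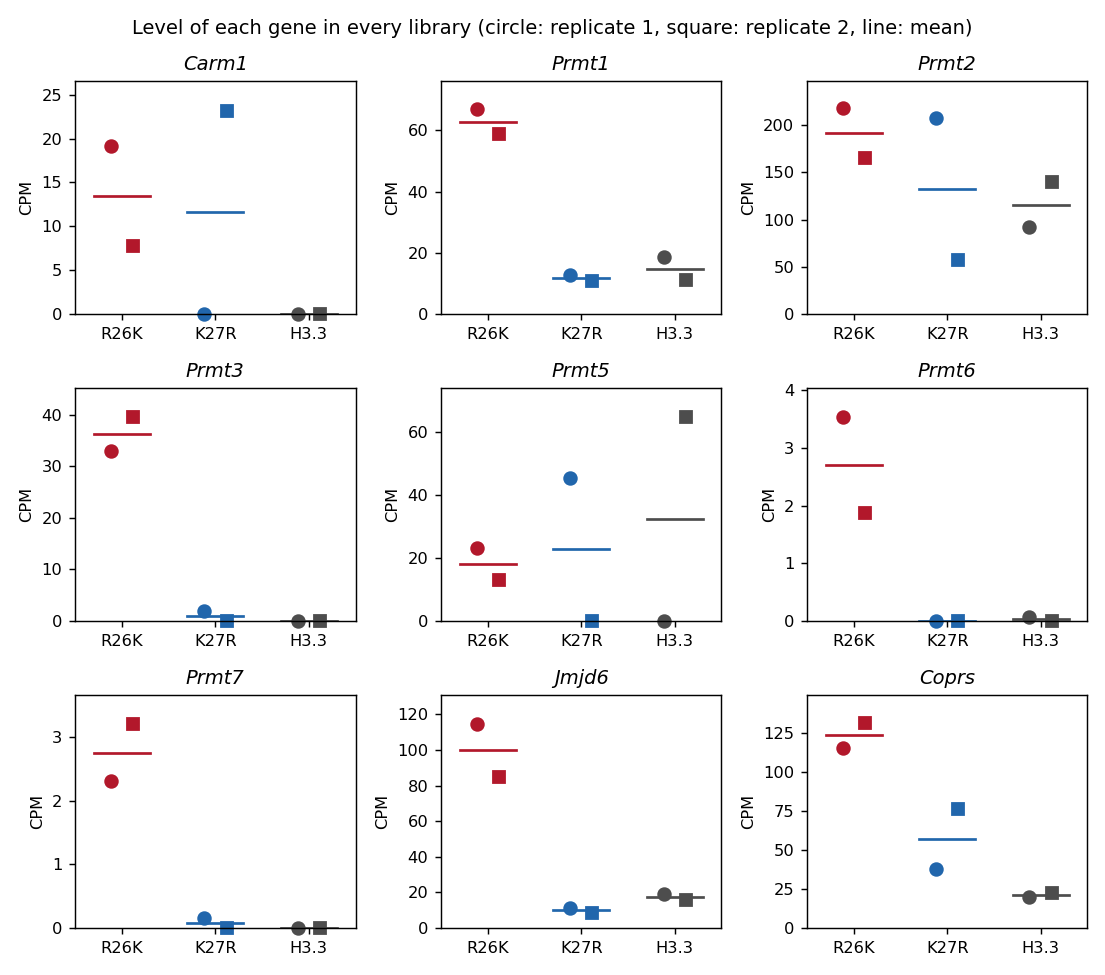
CPM of each of the 9 genes in every library, on axes that start at 0 and differ between panels; circles are replicate 1, squares replicate 2 and lines the group mean (n = 2). Prmt1, Prmt3, Prmt6, Prmt7, Jmjd6 and Coprs were higher in both R26K libraries than in the other 4, whereas Carm1 and Prmt5 had a library at 0 and another well above 0 in K27R.

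Compared per length, the order of the 9 genes was clearest in R26K. The mean level per kilobase of exon there was 56.5 CPM for Prmt2, 45.2 for Coprs, 21.3 for Jmjd6, 18.3 for Prmt1, 6.04 for Prmt3, 4.60 for Prmt5, 2.78 for Carm1, 0.644 for Prmt6 and 0.450 for Prmt7. Neighbours whose libraries overlapped were Jmjd6 and Prmt1, Prmt3 and Prmt5, Prmt5 and Carm1, and Prmt6 and Prmt7. In K27R, Prmt2 (39.1) and Coprs (20.9) led, followed by Prmt5 (5.73, from 1 library), Prmt1 (3.46), Carm1 (2.39, from 1 library) and Jmjd6 (2.12). In H3.3, Prmt2 (34.2) was followed by Prmt5 (8.15, from 1 library), Coprs (7.77), Prmt1 (4.34) and Jmjd6 (3.66 CPM per kilobase). Prmt2 was above every other member in each of the 6 libraries except K27R replicate 2, where Coprs (28.0) exceeded it (16.9).

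Over the set, no gene passed the test in any comparison. In R26K against H3.3, edgeR called 0 of 9, where it called 0.619% of all 10667 tested genes; 4 of the 9 and 21.7% of all genes had an unadjusted p under 0.05, and DESeq2 called 4 of the 7 with an adjusted p (Carm1, Prmt3, Jmjd6 and Coprs), all higher in R26K, where it called 18.7% of all genes with one. Both R26K libraries lay above both H3.3 libraries for 8 of the 9, all but Prmt5, against 44.9% of all tested genes. In R26K against K27R, 0 of 9 were called, against 0.375% of all genes; 2 of the 9 and 13.2% of all genes had an unadjusted p under 0.05, DESeq2 called 2 of 7 (Prmt1 and Jmjd6) and 8.83% of all genes, and R26K lay above K27R for 6 of the 9, against 36.3%. Those 6 also lay above all 4 other libraries, which held for 2875 of the tested genes (26.95%). In K27R against H3.3, edgeR called 0 of 9 and 0% of all genes; none of the 9 and 7.12% of all genes had an unadjusted p under 0.05, DESeq2 called 1 of 7 (Carm1) and 7.60% of all genes, 2 lay wholly higher (Prmt3 and Coprs, against 15.9% of genes) and 1 wholly lower (Jmjd6, against 9.62%). The comparisons with H3.3 share its libraries. All 9 genes passed the filter on low counts, but Prmt6 and Prmt7 reached the filter level in the R26K libraries alone and so had to differ. Carm1 reached it in both R26K libraries and K27R replicate 2, and Prmt3 in both R26K libraries and K27R replicate 1. These 2 genes thus also passed only through R26K, and a level above H3.3 was favoured in advance, in the DESeq2 calls as well.

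For the 4 genes counted in all libraries, Prmt1, Prmt2, Jmjd6 and Coprs, the median log2 fold change was 2.31 in R26K against H3.3, 1.76 in R26K against K27R and -0.07 in K27R against H3.3. Over the 5006 tested genes counted in all libraries the medians were -0.05, -0.04 and -0.02. Over all 9 genes the medians were 2.54, 2.41 and 0.20, and were the same with genes lacking counts set at their floor; over all tested genes they were 0.66, 0.32 and 0.12.

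The GC content of the transcripts moved with the R26K differences. Among 2847 genes averaging 50 CPM or more, the median log2 fold change of R26K against H3.3 was -0.50 where the longest transcript had under 45% GC, 0.03 at 45 to 50%, 0.60 at 50 to 55% and 1.22 at 55% and over. For K27R against H3.3 the medians were -0.06, 0.06, 0.04 and 0.09. Among the set, GC content was 57.4% for Carm1, 55.8% for Prmt2, 54.7% for Prmt1, 53.3% for Prmt7, 52.6% for Prmt5, 52.5% for Jmjd6, 51.5% for Prmt6, 46.9% for Coprs and 44.2% for Prmt3, where the median of those abundant genes was 46.9%. With each library corrected for GC content and length, the log2 fold change of R26K against H3.3 was 0.64 ± 0.98 for Prmt1, 1.32 ± 0.78 for Jmjd6, 2.43 ± 0.67 for Coprs and -0.96 ± 0.59 for Prmt2, whose sign turned. Against K27R the corrected values were 1.16 ± 0.99 for Prmt1, 2.37 ± 0.81 for Jmjd6, 1.08 ± 0.64 for Coprs and -0.81 ± 0.59 for Prmt2. This correction also changed the scaling: over the 5006 genes counted in all libraries, the median of R26K against H3.3 was -0.44 with it and -0.05 without it. A second version, in which the correction of each library was centred on its median, was added after these values were seen, and gave a median of -0.08. With it, R26K against H3.3 was 0.95 ± 0.98 for Prmt1, 1.66 ± 0.77 for Jmjd6, 2.78 ± 0.63 for Coprs and -0.58 ± 0.61 for Prmt2. Under both versions, in R26K against H3.3, the differences of Prmt1 and Jmjd6 were smaller than as counted and Prmt2 lay below 0. In K27R against H3.3 those of Prmt1 and Jmjd6, both below 0, were larger in size than as counted. With either version edgeR called none of the 9 genes in any comparison.

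**Figure D3:**
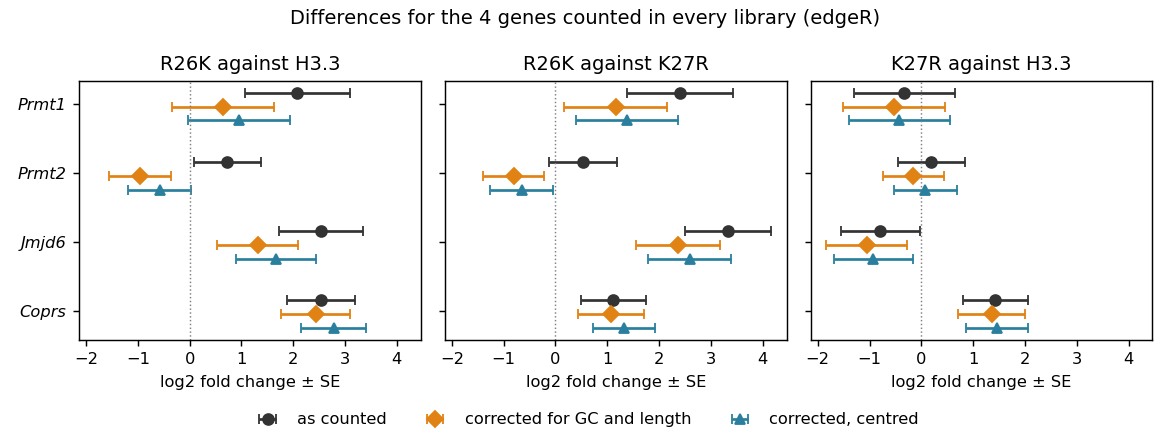
Log2 fold change with its SE (edgeR) of the 4 genes counted in every library, as counted (circles), after correction for GC content and length (diamonds) and after the centred correction (triangles), in the 3 comparisons. In R26K against H3.3, Coprs was at 2.43 and 2.78 with the corrections and 2.54 as counted, Prmt1 at 0.64 and 0.95 with them and 2.08 as counted, and Prmt2 at -0.96 and -0.58 with them and 0.73 as counted.

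The likeness of patterns was measured as the distance between mean-centred log2 CPM over the 6 libraries. Within the set the closest pair was Prmt1 and Jmjd6 (0.995), followed by Prmt6 and Prmt7 (1.83). Of 2740 other named genes averaging 50 CPM or more, those nearest to Jmjd6 were Zfand5 (0.346), Mlf2 (0.655) and Trim11 (0.658), where the median distance was 3.80. Zfand5, the nearest, was at 693 and 596 CPM in R26K, at 59.3 and 60.6 CPM in K27R and at 123 and 99.3 CPM in H3.3. Among these abundant genes Carm1 had no such close neighbours: among the nearest were Srsf2 (5.61) and Unc5a (5.66), where the median was 9.02. The search could not decide whether Carm1 has close neighbours, because it averaged 8.36 CPM, below the 50 CPM asked of the others. Its presence and absence was found for 118 of the 10667 tested genes (1.11%), with no count in H3.3 and K27R replicate 1 and counts elsewhere.

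The wider pathway was read from 51 genes, all found in the table, of which 41 were tested. None passed in any comparison by edgeR (lowest adjusted p = 0.127), where 7, 7 and 0 had an unadjusted p under 0.05 in R26K against H3.3, R26K against K27R and K27R against H3.3, against 21.7%, 13.2% and 7.12% of all tested genes. DESeq2 called 5, 5 and 0 of the 37 with an adjusted p, against 18.7%, 8.83% and 7.60% of all genes. Both shares lay below those of all genes in R26K against H3.3 and above them in R26K against K27R, and no set test was run. Against H3.3, DESeq2 called Crebbp, Mat2b, Ncoa3 and Riok1 lower in R26K and Ahcyl1 higher. Ahcyl1 had at most 0.153 CPM in H3.3 and passed the filter only through R26K. Against K27R, DESeq2 called Crebbp, Ncoa3, Riok1 and Tdrd12 lower in R26K and Padi6 higher. Among the 30 counted in every library, 7 had a log2 fold change above 0 in R26K against H3.3 and the median was -0.47, against -0.05 over the 5006 genes. The median was -0.40 in R26K against K27R and -0.08 in K27R against H3.3. The median GC content was 47.9% for the 30 and 47.4% for the 4978 of the 5006 genes with a value, and the median of the 30 in R26K against H3.3 was -0.68 with the GC and length correction and -0.33 with the centred one.

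**Figure D4:**
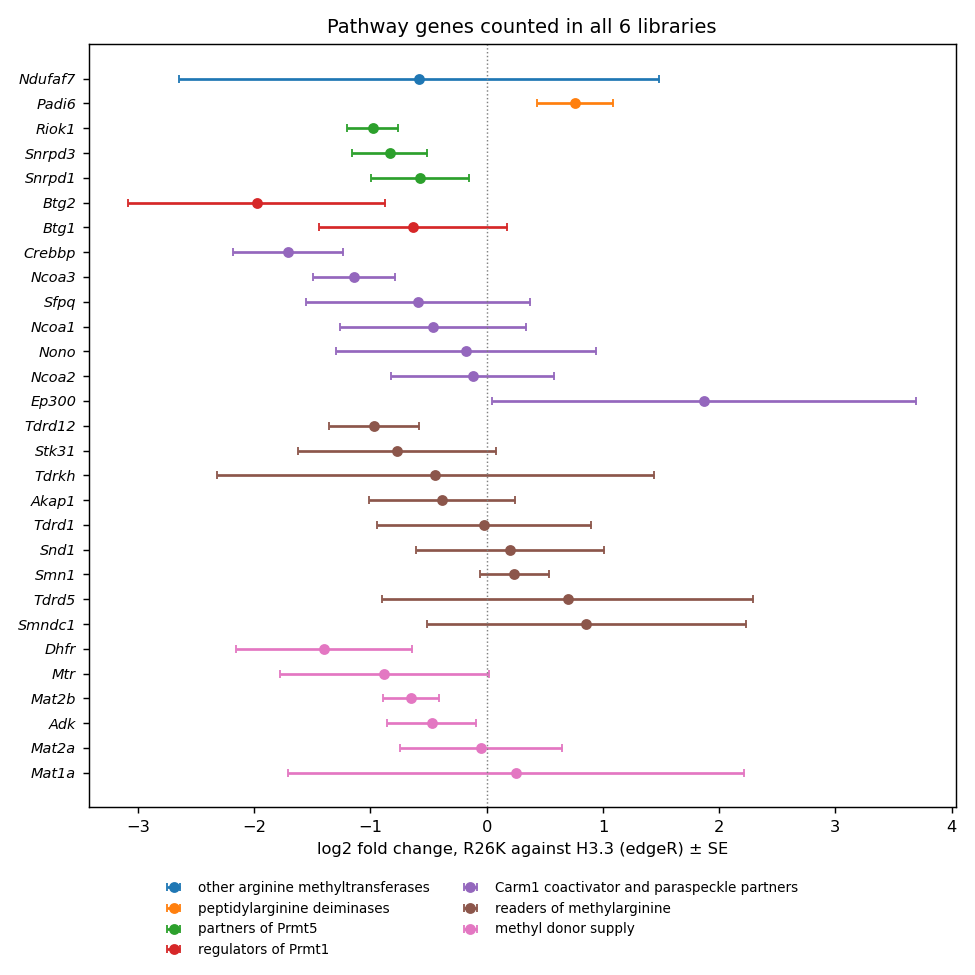
Log2 fold change of R26K against H3.3 with its SE (edgeR) for 29 of the 30 pathway genes counted in all 6 libraries, coloured by sub-list. Points right of 0 are higher in R26K, which holds for 7 of the 29, and none passed the test.

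Of the other methyltransferases, Prmt8, known from brain, had no count in any library and Prmt9, listed under its older symbol Prmt10, had 1 count, in K27R replicate 1. Ndufaf7, which methylates an arginine of mitochondrial complex I, was at 29.9 and 25.5 CPM in R26K, at 36.4 and 39.4 CPM in K27R and at 0.0766 and 83.0 CPM in H3.3, so that the H3.3 replicates enclosed all other values. Among the deiminases, which convert arginine to citrulline, Padi6, required for the cytoplasmic lattices of the egg, had the highest CPM. It was at 452 and 495 CPM in R26K, at 258 and 154 CPM in K27R and at 266 and 293 CPM in H3.3. R26K was the highest group, with a log2 fold change of 0.76 ± 0.33 against H3.3 and 1.20 ± 0.33 against K27R (edgeR adjusted p = 0.242 and 0.281). Padi4, a nuclear deiminase of histones, reached 19.7 CPM in H3.3 replicate 2 and at most 0.950 CPM elsewhere. Padi1 reached 10.3 CPM in H3.3 replicate 1 and at most 0.968 CPM elsewhere, and Padi3 had no count.

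Among the partners of Prmt5, the 3 with the highest CPM had log2 fold changes below 0 in R26K against H3.3, opposite to Coprs. Riok1, an adaptor that competes for the same site on Prmt5 as the spliceosomal adaptor Clns1a, was at 855 and 864 CPM in R26K, at 1666 and 1290 CPM in K27R and at 1758 and 1637 CPM in H3.3. The R26K libraries lay below all others, with a log2 fold change of -0.98 ± 0.22 against H3.3 (edgeR adjusted p = 0.127). Snrpd3 and Snrpd1, Sm proteins that Prmt5 methylates, had log2 fold changes of -0.83 ± 0.32 and -0.57 ± 0.42 in R26K against H3.3 (edgeR adjusted p = 0.214 and 0.469). Of the Prmt1 regulators, Btg1 had -0.64 ± 0.81 and Btg2 -1.98 ± 1.10 in the same comparison. Wdr77, the obligate partner of Prmt5, was chosen after its values were seen: it was at or below 0.163 CPM in all libraries and was not tested. Clns1a, also chosen after its values were seen, lay the other way from Riok1, at 15.2 and 7.41 CPM in R26K, at 2.28 and 0 CPM in K27R and at 0.0766 and 0 CPM in H3.3 (edgeR adjusted p = 0.254 for R26K against H3.3). Clns1a reached the filter level only in both R26K libraries and K27R replicate 1. It thus passed only through R26K, and a level above H3.3 was favoured in advance.

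Among the coactivators that work with Carm1, Crebbp, an acetyltransferase, was at 62.0 and 80.3 CPM in R26K, at 182 and 399 CPM in K27R and at 272 and 193 CPM in H3.3. The R26K libraries lay below the rest, with a log2 fold change of -1.71 ± 0.48 against H3.3 and -2.03 ± 0.48 against K27R (edgeR adjusted p = 0.190 and 0.194). Ncoa3, a steroid receptor coactivator that recruits Carm1, was at 80.4 and 119 CPM in R26K, at 259 and 206 CPM in K27R and at 213 and 226 CPM in H3.3. Its log2 fold change was -1.14 ± 0.35 against H3.3 and -1.22 ± 0.35 against K27R (edgeR adjusted p = 0.213 and 0.302). Ep300, of the same list and chosen after its values were seen, lay the other way. It was at 18.8 and 24.05 CPM in R26K and at 0.896 to 7.14 CPM in the other libraries. The log2 fold change of Ep300 in R26K was 1.87 ± 1.83 against H3.3 and 3.16 ± 1.92 against K27R (edgeR adjusted p = 0.62 and 0.627). Of the 8 tested genes of this list, 2 had a log2 fold change above 0 in R26K against H3.3 and 5 in R26K against K27R. Sfpq, a paraspeckle protein, had -0.59 ± 0.96 in R26K against H3.3, and Prdm14 had no count. Pspc1, another paraspeckle protein gene and chosen after its values were seen, was at 3.34 and 2.90 CPM in R26K and had no count in K27R or H3.3. It reached the filter level in the R26K libraries alone and so had to differ. Counts in both R26K libraries and none in the other 4 were found for 437 of the 10667 tested genes (4.10%).

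The last lists held readers of methylarginine and genes of methyl donor supply. Smn1, which binds methylated Sm proteins, was at 753 and 621 CPM in R26K, at 536 and 782 CPM in K27R and at 662 and 503 CPM in H3.3, with overlapping groups. Tdrd12, of the germline small RNA pathway, was at 136 and 88.6 CPM in R26K, at 331 and 255 CPM in K27R and at 178 and 263 CPM in H3.3, with a log2 fold change of -0.97 ± 0.39 against H3.3 (edgeR adjusted p = 0.221). Akap1 had -0.39 ± 0.63, and Tdrd6 had no count in any library. Mat2b, the regulatory subunit of S-adenosylmethionine synthetase, had the highest CPM of the pathway genes, at 4886 and 3511 CPM in R26K, at 5743 and 7338 CPM in K27R and at 6521 and 6659 CPM in H3.3. Its log2 fold change in R26K against H3.3 was -0.65 ± 0.24 (edgeR adjusted p = 0.213), where that of Adk was -0.47 ± 0.38 and that of the catalytic subunit gene Mat2a -0.05 ± 0.70.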

How the data were processed

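Polyadenylated RNA of 6 egg libraries was read from SMARTer Ultra Low cDNA and Nextera libraries, which do not mark the strand, per the labels' protocols. The deposited values are raw read counts, 1 whole number per gene symbol and library. The submitters' processing notes name mm10, featureCounts, SAMtools 1.3, TopHat2 2.1.0 and cutadapt 1.9.1; the annotation, strand setting and handling of multiply mapping reads are not given in the sources used here. Each of the 6 columns matched 1 sample by its title.

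From the deposited counts, TMM-scaled CPM were computed, and filterByExpr kept 10667 genes. A single edgeR 4.0.16 model (quasi-likelihood, R 4.3.3) with 3 group means took in all libraries, leaving 3 residual degrees of freedom; its two-sided tests were adjusted over all tested genes by Benjamini-Hochberg, at 0.05. SE was the absolute log2 fold change over the root of the F statistic. Alternatives included DESeq2 1.42.0 and a loess correction for transcript GC content and length; centring that correction was added after its values were seen. Positions, exon lengths and GC content came from GENCODE M21 (mm10), where 23684 of 24062 symbols matched; a near-identical copy (at least 95% identity over 100 bases) outside overlapping genes was found for none of the 9 genes. The steps were run on simulated counts, whose outcome is not reported here. A gene that was not called was not thereby shown to be unchanged. The genes, the lists and the tests were chosen with earlier results of these data known. The pathway genes named were the 3 with the highest mean CPM of each sub-list and those at 0 in every library, others being said to be chosen later; Jmjd6 and Carm1 were given their 3 nearest genes. Single results that these rules would name are not all reported here. Same-numbered replicates did not deviate together (correlations of -0.0099 to 0.0136), so they were not paired.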

Additional observations from a re-analysis of the deposited data

How the results depend on the processing

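Of the members and pathway genes tested, none was called under RLE (relative log) or upper-quartile scaling, without the filter, with a minimum mean of 10 CPM, when the compared groups were fitted alone, with robust spread, with either correction for GC content and length, or with any library left out (0 to 0). With the replicate number as a block 0 members were also called, although of all genes 260 passed in R26K against H3.3, where 66 did without it. DESeq2 called 4 members in R26K against H3.3, 1 in K27R against H3.3 and 2 in R26K against K27R, and 5 pathway genes in each R26K comparison; the cause was not tested. Over all genes, calls in R26K against H3.3 were 1644 by DESeq2, 241 without a filter, 157 at 10 CPM, 26 with the GC correction (55 centred), 0 in the fit of the compared groups and 1 to 193 with a library left out. In R26K against K27R, 40 were called, with 759 by DESeq2, 195 with the block, 156 without a filter, 95 at 10 CPM, 23 with the GC correction (36 centred) and 0 to 140 with a library left out. Higher and lower calls in R26K against H3.3 were 43 and 23, with 31 and 27 under upper-quartile scaling, 8 and 18 with the GC correction and 29 and 26 centred; in R26K against K27R they were 22 and 18, with 17 and 23, 7 and 16, and 14 and 22 in the same order. In K27R against H3.3, 0 were called, with 685 by DESeq2 and 0 to 5 with a library left out.

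Directions of 21 of 416 values turned. The centred correction was chosen after the data were seen, because the uncentred one moved the median of all genes. With the GC correction, Prmt2 was at -0.96 in R26K against H3.3, -0.15 in K27R against H3.3 and -0.81 in R26K against K27R, and Carm1 at -1.81 in R26K against K27R, where upper-quartile scaling gave -0.039. Centred, Prmt2 was at -0.58 in R26K against H3.3 and -0.65 in R26K against K27R, and Carm1 at -1.47 in the last. With the replicate block, Prmt2 in K27R against H3.3 was at -0.021 and Prmt5 in R26K against K27R at 0.031. With a library left out, Prmt5 ran from -1.83 to 11.59 in R26K against H3.3, from -12.41 to 11.90 in K27R against H3.3 and from -1.32 to 11.58 in R26K against K27R. Prmt1 ran from -0.66 to 0.11 and Prmt2 from -1.02 to 0.84 in K27R against H3.3, and in R26K against K27R Prmt2 ran from -0.12 to 1.75 and Carm1 from -0.78 to 11.18. The mean level of Prmt2 per kilobase was 43.3 CPM over the exon union and 69.6 CPM over the longest transcript. In 3 of the left-out settings Carm1, Prmt6 or Prmt7 had no count in either group of K27R against H3.3 and no value. With the minimum of 10 CPM, Carm1, Prmt6, Prmt7 and all but 31 pathway genes were not tested. In the fit of the compared groups alone, 5 members (not Carm1, Prmt3, Prmt6 or Prmt7) and 34 pathway genes were tested in K27R against H3.3, and 39 pathway genes in R26K against K27R.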
